A study of Homo sapiens with 12 samples.

Results

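The SOX transcription factors described here are 10 genes that were listed by name: SOX1, SOX2, SOX3, SOX4, SOX5, SOX6, SOX9, SOX10, SOX11 and SOX21. They were found by matching the Ensembl identifiers of the count files to gene symbols, and they are 10 of 58302 genes in all. RNA was sequenced from 12 samples of H1 cells, a human embryonic stem cell (ESC) line, after conversion into neural progenitor cells (NPCs) that were grown as neural spheres with FGF2 and EGF. The 6 groups hold 2 samples each: wild-type (WT) and dKO NPCs at passage 2, WT and dKO NPCs at passage 4, and WT-D28 and dKO-D28 cells. The D28 cells are passage 2 NPCs left to differentiate spontaneously for 28 days without FGF2 and EGF. By the methods of the study, their medium held GDNF, BDNF and cAMP instead. In dKO cells CRISPR/Cas9 deleted the catalytic JmjC sites of UTX (KDM6A) and JMJD3 (KDM6B), enzymes that take the repressive H3K27me3 mark off histones. The dKO cells come from picked knock-out clones, so clone and genotype cannot be told apart. Passage 4 is named in the labels, whereas passage 2 is taken from the methods of the study. The comparisons ask how the SOX genes differed between the genotypes at each stage and how they changed with passage and with differentiation.

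SOX proteins bind the minor groove of DNA through an HMG box and bend it, usually together with a partner factor. In the developing nervous system the SOXB1 factors SOX1, SOX2 and SOX3 maintain progenitors, the SOXB2 factor SOX21 counteracts them, and the SOXC factors SOX4 and SOX11 act in committed precursors and young neurons. The SOXD factors SOX5 and SOX6 have no activation domain of their own and modulate other SOX proteins, SOX9 (SOXE) acts in neural stem cells, glia and cartilage, and SOX10 (SOXE) marks neural crest and oligodendrocytes.

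Values per sample are CPM, counts per 1000000 of a library size that was normalized with TMM. The total was 756942 to 1438807 counts per sample in NPCs at passage 2, 3174410 to 4220037 at passage 4 and 4082248 to 10601172 at day 28, so depth differed between stages and the passage 2 values are the least precise. A count of 3 corresponded to 3.92 CPM in the shallowest sample and to 0.302 CPM in the deepest. These floors cover counting error only. The 2 dKO-D28 samples stood apart from each other more than those of any other group: their counts differed with a chi-square of 12.5 per degree of freedom, against 1.63 to 2.90 in the other 5 groups. The labels do not say that the 2 samples of a group came from separate cultures, so p-values measure the spread between these samples, which may be technical. The labels give no batch either, so group and batch cannot be told apart. KDM6A and KDM6B were still counted in dKO cells, at 27.7 to 59.4 and 146 to 188 CPM, but these counts cover whole genes and do not check the deletion of a small catalytic part. The progenitor gene PAX6 was at 178 to 356 CPM in every group but WT-D28, where it was at 11.9 and 11.7 CPM, and NES, also a progenitor gene, was between 618 and 1783 CPM in all 12 samples. The stem cell genes POU5F1 and NANOG had no count in any sample.

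Of the 10 genes, 7 could be matched to promoter windows of RefSeq (GRCh38.p14), while SOX9, SOX10 and SOX11 could not. SOX2 (chr3:181711925-181714436, plus strand), SOX4 (chr6:21593751-21598619, plus strand), SOX5 (chr12:23529504-24562544, minus strand) and SOX21 (chr13:94709622-94712545, minus strand) are shown because all 4 were at least 2-fold lower in dKO than in WT NPCs at passage 4. In the first 3 sequences capitals mark the SOX core motif ACAATG or ACAAAG, searched on both strands, so that CATTGT is the first of these on the other strand. The SOX2 stretch is chr3:181711675-181711924 (plus strand), the SOX4 stretch chr6:21593501-21593750 (plus strand) and the SOX5 stretch chr12:24562545-24562741 (minus strand), each read 5′ to 3′ towards its gene and outside the exons of protein-coding genes, which shortened the SOX5 stretch to 197 bases.
SOX2: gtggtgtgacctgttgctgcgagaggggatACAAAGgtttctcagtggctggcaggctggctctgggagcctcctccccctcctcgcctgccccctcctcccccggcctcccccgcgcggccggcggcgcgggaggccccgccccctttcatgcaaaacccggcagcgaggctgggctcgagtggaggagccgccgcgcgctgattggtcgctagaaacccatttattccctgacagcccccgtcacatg
SOX4: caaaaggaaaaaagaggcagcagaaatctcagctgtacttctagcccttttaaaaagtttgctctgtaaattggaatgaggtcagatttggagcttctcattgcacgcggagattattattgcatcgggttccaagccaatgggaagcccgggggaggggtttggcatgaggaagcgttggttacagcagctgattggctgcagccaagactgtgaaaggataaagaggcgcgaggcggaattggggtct
SOX5: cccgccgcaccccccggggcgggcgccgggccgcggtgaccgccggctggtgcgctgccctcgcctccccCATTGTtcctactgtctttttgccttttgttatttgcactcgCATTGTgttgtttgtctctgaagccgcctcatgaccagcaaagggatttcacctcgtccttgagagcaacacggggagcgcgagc
The SOX2 stretch holds 1 ACAAAG, the SOX5 stretch holds 2 ACAATG on the opposite strand, and the SOX4 stretch holds neither. Among 35116 RefSeq windows of 250 bases upstream of a start, 9.29% held ACAATG, 13.7% held ACAAAG and 21.2% held either, so a match describes only these letters. CG dinucleotides numbered 20 in the SOX2 window and 8 in the SOX4 window, against a median of 11 over all windows.

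In RefSeq, SOX21 and the noncoding gene SOX21-AS1 start in opposite directions from the same stretch, chr13:94712546-94712715, which is shown because both genes were lower in dKO NPCs at passage 4. The SOX21-AS1 gene of GENCODE that was counted is longer (chr13:94703454-94803430, plus strand) and runs antisense across the whole of SOX21, sharing no exonic base with it. It is printed on the minus strand, towards SOX21, with its 7 CG dinucleotides in capitals.
SOX21: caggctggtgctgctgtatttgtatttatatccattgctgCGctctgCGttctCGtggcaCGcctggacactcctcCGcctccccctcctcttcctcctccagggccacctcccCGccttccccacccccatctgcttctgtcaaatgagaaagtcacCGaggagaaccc
Neither SOX motif occurs in these 170 bases. SOX1 (chr13:112067149-112071706) and SOX2 lie within the noncoding genes SOX1-OT and SOX2-OT on the same strand, but share no exonic base with them. SOX10 shares 5.39% of its exonic bases with POLR2F on the opposite strand and SOX4 3.45% with an antisense noncoding gene. The strand setting of the counting is not given in the sources used here, so reads in these shared bases cannot be assigned with certainty.

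Of the 10 genes, 9 passed the filter, which asked for 20 or more counts on average across all 12 samples. SOX10 did not, and it had no count in 5 samples and at most 8 counts, 0.960 CPM, in the others. All 9 tested genes had at least 1 CPM in every sample. Summed over the 10 genes, the level at passage 2 was 2262 and 2684 CPM for WT NPCs and 1886 to 2010.4 CPM for dKO NPCs. At passage 4 the sum was 3469.5 to 4044 CPM in WT samples and 1149 to 1214 CPM in dKO NPCs, which were the highest and the lowest sums. At day 28 it was 2591 to 2626.5 CPM in WT samples and 1753 to 1867 CPM in dKO cells. In the plot of SOX levels by sample, the WT samples at passage 4 lay above all other samples for SOX2, SOX4, SOX5, SOX9, SOX11 and SOX21.

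**Figure D1:**
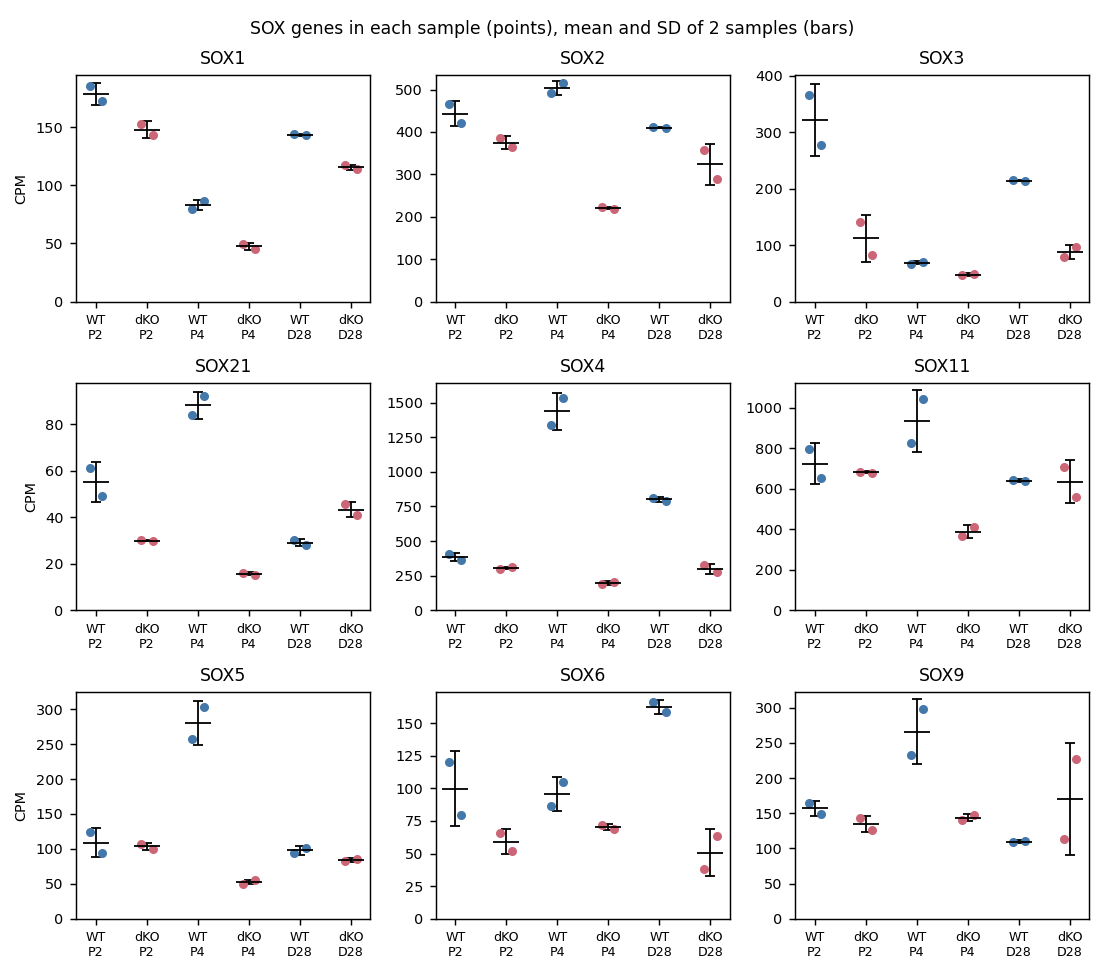
CPM of the 9 tested SOX genes in each sample, by group (blue WT, red dKO), with the mean and the SD of 2 samples as black bars. SOX4 reached 1341 and 1533 CPM in WT NPCs at passage 4 and stayed between 188 and 204 CPM in dKO NPCs at passage 4.

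Genes were tested with edgeR's quasi-likelihood test in a single fit of 13454 genes, and called at an unadjusted p below 0.05 with a fold change above 2. Adjusted p-values are Benjamini-Hochberg adjusted over all 13454 genes, and each log2 fold change is given with its standard error (SE). A comparison of 2 samples with 2 cannot go below a two-sided exact permutation p of 0.333, so a call leans on the variance that edgeR shares across genes. At passage 2, 1 of the 9 SOX genes was called lower in dKO than in WT NPCs, SOX3, where 1.83% of all genes tested were called lower. All 9 log2 fold changes were negative, with a median of -0.27 against 0.00 over all genes. At passage 4, SOX2, SOX4, SOX5, SOX11 and SOX21 were called lower in dKO NPCs, 5 of 9 where 11.2% of all genes were. The median over the 9 genes was -1.19, against 0.02 over all genes, and again no gene had a positive value. At day 28, 3 of 9 were called lower in dKO cells, SOX3, SOX4 and SOX6, where 11.7% of all genes were. No SOX gene of the list was called higher in dKO cells at any stage.

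**Figure D2:**
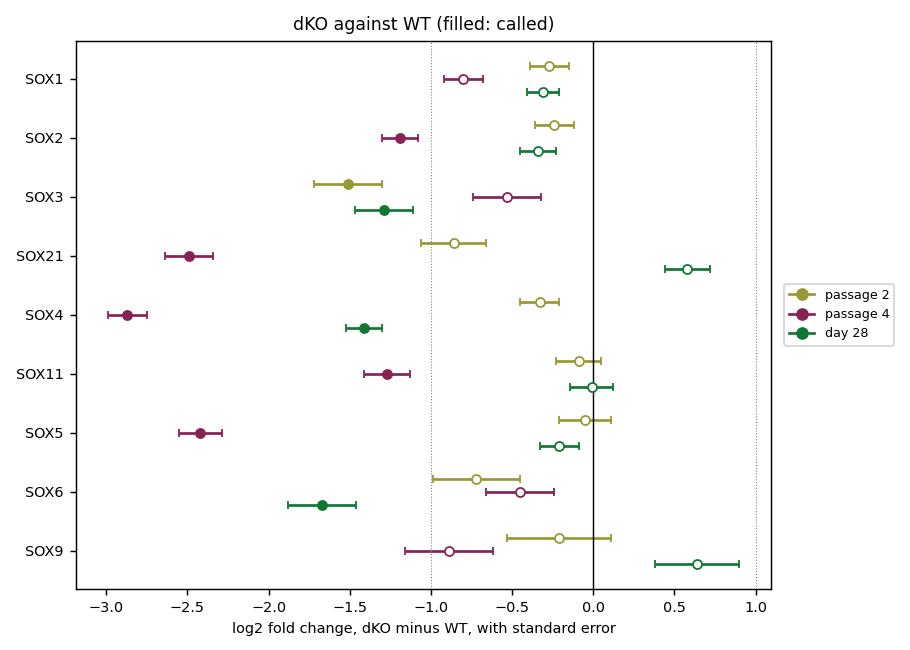
Log2 fold change of dKO against WT for each SOX gene at passage 2, passage 4 and day 28, with standard errors. Filled points are called, open points are not, and dotted lines mark a 2-fold change. At passage 4 SOX4 lay at -2.87 and SOX21 at -2.49, while SOX9 and SOX21 had positive values at day 28.

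From passage 2 to passage 4, SOX4 and SOX5 rose in WT NPCs (2 of 9 called higher, where 10.3% of all genes were) and SOX1 and SOX3 fell (2 of 9 called lower, where 9.49% were). In dKO NPCs SOX1 and SOX3 were also called lower, 2 of 9 where 5.22% of all genes were, and no SOX gene of the list was called higher. From passage 2 to day 28 SOX4 rose in WT cells, 1 of 9 called higher where 12.9% of all genes were, a share close to the background. In dKO cells 0 of 9 SOX genes were called between passage 2 and day 28 by edgeR, where 7.14% of all genes were called in either direction. SOX1 and SOX21 had an unadjusted p below 0.05 there, with a fold change under 2, and DESeq2 also called 0 of 9. The change with passage and the change with differentiation start from the same passage 2 samples, so the values of these comparisons are given side by side without a measure of their likeness.

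**Figure D3:**
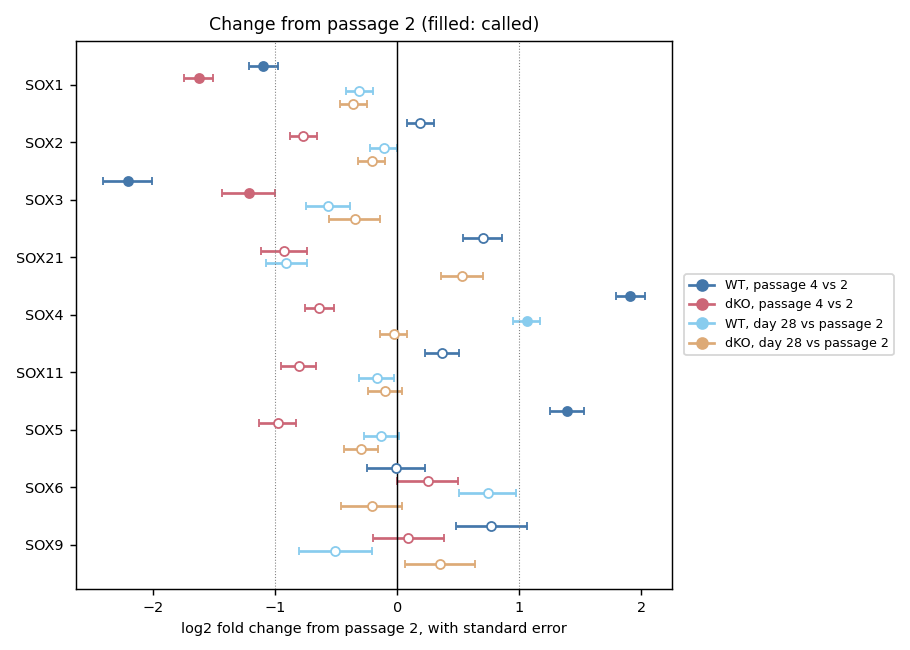
Log2 fold change from passage 2 to passage 4 and from passage 2 to day 28 for each SOX gene, in WT and dKO cells, with standard errors. Filled points are called, open points are not. In WT cells SOX4 rose by 1.91 with passage and by 1.06 with differentiation, whereas SOX3 fell by 2.21 with passage.

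The difference between the genotypes' changes was tested directly as a contrast of the same fit. For passage, 4 of 9 SOX genes (SOX4, SOX5, SOX11 and SOX21) had positive values in WT and negative values in dKO NPCs and a difference that was called lower, where 9.57% of all genes were. SOX2 had the same signs, with a difference under 2-fold that was not called. For differentiation, SOX21 was called higher and SOX4 lower, 1 of 9 each where 12% and 11.1% of all genes were, shares close to the background.

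SOX2, a core factor of neural progenitors and ESCs, had 465 and 422 CPM in WT samples and 385 and 364 CPM in dKO NPCs at passage 2. Passage 4 samples had 491 and 515 CPM in WT samples and 223 and 218 CPM in dKO NPCs. The 2 dKO samples at passage 4 were the lowest of the 12 and did not overlap with any other group. The log2 fold change at passage 4 was -1.19 (SE 0.11, adjusted p = 2.47e-07), and the call was kept in all 14 alternative analyses. At day 28, WT cells had 412 and 409 CPM and dKO cells 358 and 290.1 CPM, so SOX2 was still expressed in WT-D28 cells, where PAX6 was low. The values of WT cells at passage 2 and day 28 differed by a log2 fold change of -0.11 (SE 0.11, adjusted p = 0.458). The drop of SOX2 with passage in dKO NPCs, -0.77 (SE 0.11, adjusted p = 0.00021), was under 2-fold and not called. The change with passage differed between the genotypes by -0.95 (SE 0.16, adjusted p = 0.000438), under 2-fold, and it was called only without replicate 1 of WT NPCs at passage 2 (-1.02).

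SOX1, which appears with neural induction, had 185 and 172 CPM in WT samples and 153 and 143 CPM in dKO NPCs at passage 2. By passage 4 it had 79.8 and 86.3 CPM in WT samples and 49.9 and 45.6 CPM in dKO NPCs. Both genotypes were thus lower at passage 4 than at passage 2, without overlap. The log2 fold change was -1.10 in WT (SE 0.12, adjusted p = 2.67e-06) and -1.63 in dKO NPCs (SE 0.12, adjusted p = 2.57e-07), and both calls were kept in all 14 alternatives. Between the genotypes at passage 4 the difference was -0.80 (SE 0.12, adjusted p = 2.95e-05), under 2-fold, and with offsets for GC content and gene length it was called at -1.01. At day 28 SOX1 had 144 and 143 CPM in WT samples and 117 and 114 CPM in dKO cells.

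SOX3, the X-linked SOXB1 gene (chrX:140502985-140505069, minus strand), had 367 and 277 CPM in WT samples and 142 and 82.7 CPM in dKO NPCs at passage 2. The groups did not overlap, although the samples within each group differed widely. SOX3 fell by 1.51 on the log2 scale in dKO NPCs at passage 2 (SE 0.21, adjusted p = 0.0025). It was the only 1 of the 9 genes called at this stage, and the call was kept in all 14 alternatives, with adjusted p up to 0.12. At passage 4 it had 67.5 and 70.6 CPM in WT samples and 46.6 and 49.3 CPM in dKO NPCs, with a log2 fold change of -0.53 (SE 0.21, adjusted p = 0.0485), which was not called. After 28 days it had 215 and 214 CPM in WT samples and 78.5 and 96.9 CPM in dKO cells. The day 28 samples did not overlap, and SOX3 was called lower in dKO cells (log2 fold change -1.29, SE 0.18, adjusted p = 5.23e-05). With passage, SOX3 fell by 2.21 in WT (SE 0.20, adjusted p = 2.96e-06) and by 1.22 in dKO NPCs (SE 0.22, adjusted p = 0.00163). Without replicate 1 of dKO NPCs at passage 2 the dKO value was -0.79 and not called. The difference of these changes, 0.98 (SE 0.29, adjusted p = 0.0282), was just under 2-fold, and it reached 1.42 without that sample.

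On a scale that can be compared between genes, CPM per kilobase of exon, SOX2 and SOX3 had similar levels in WT NPCs at passage 2, 176 ± 12.1 and 154 ± 30.4 (SD, n = 2). SOX2 then made up 46.1% and 49.6% of the summed level of SOX1, SOX2 and SOX3, and SOX3 made up 43.8% and 39.3%. In dKO NPCs at passage 2 the share of SOX3 was 26.7% and 18.4%. At passage 4 the share of SOX2 was 79.7% and 79.5% in WT and 72.7% and 72.1% in dKO NPCs. At day 28 it was 54.9% and 54.8% in WT and 69.2% and 61.8% in dKO cells. SOX2 was therefore the main SOXB1 transcript per length in every sample, and WT cells at passage 2 and day 28 were those with the most SOX3. These shares are descriptions of the same counts and carry no test.

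**Figure D4:**
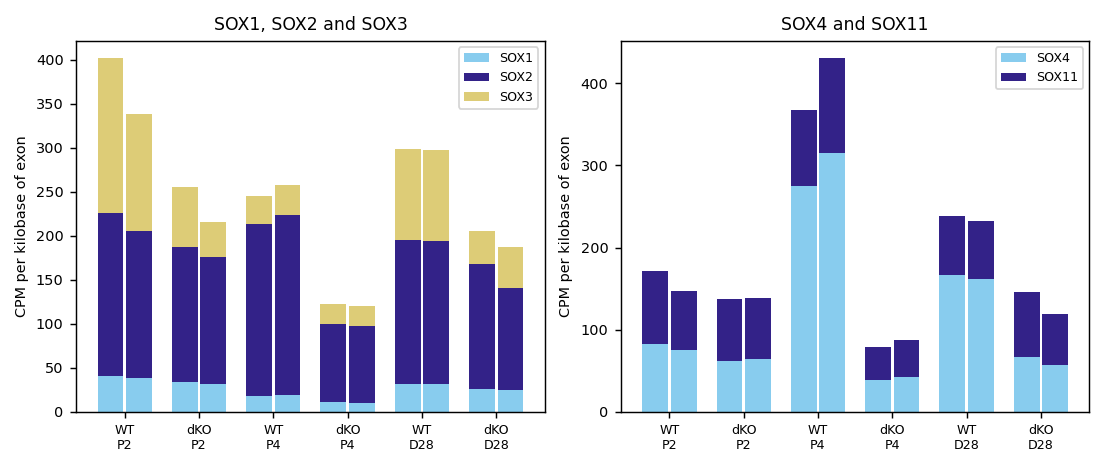
Level per kilobase of exon, stacked for SOX1, SOX2 and SOX3 (left) and for SOX4 and SOX11 (right), with a bar for each of the 2 samples of a group. SOX3 took 43.8% and 39.3% of the SOXB1 sum in WT NPCs at passage 2, and SOX4 took 75.0% and 73.2% of the SOXC sum in WT NPCs at passage 4.

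SOX21 had 61.4 and 49.2 CPM in WT samples and 30.0 and 29.7 CPM in dKO NPCs at passage 2. The groups did not overlap, but the difference of -0.86 (SE 0.20, adjusted p = 0.0248) was under 2-fold, and it was called only without replicate 2 of WT NPCs at passage 2 (-1.04). At passage 4 SOX21 had 84.2 and 92.2 CPM in WT samples and 16.2 and 15.2 CPM in dKO NPCs. These were the highest and the lowest samples of the 12, with a log2 fold change of -2.49 (SE 0.15, adjusted p = 2.35e-09). At day 28 the order was turned, with 30.0 and 27.9 CPM in WT samples and 45.6 and 40.9 CPM in dKO cells, a difference of 0.58 (SE 0.14, adjusted p = 0.00215) under 2-fold.

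Within WT cells SOX21 differed by -0.91 between day 28 and passage 2 (SE 0.17, adjusted p = 0.000336). That value was not called here, but was called at -1.01 with offsets for GC content and gene length and at -1.08 without replicate 2 of WT NPCs at passage 2. Within dKO cells the difference was 0.53 (SE 0.17, adjusted p = 0.0678). The genotypes' changes with differentiation differed by 1.44 (SE 0.24, adjusted p = 0.000275) and those with passage by -1.63 (SE 0.25, adjusted p = 0.000217). SOX21 was the SOX gene called in opposite directions by these contrasts, higher for differentiation and lower for passage.

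SOX4, which acts in precursors that leave the cell cycle, had 403 and 365 CPM in WT samples and 300.3 and 311 CPM in dKO NPCs at passage 2. Passage 4 samples had 1341 and 1533 CPM in WT samples and 188 and 204 CPM in dKO NPCs. Day 28 samples had 813 and 789 CPM in WT samples and 326 and 275 CPM in dKO cells. The WT groups at passage 4 and day 28 stood above every other sample, whereas no dKO sample exceeded any WT sample.

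SOX4 had the lowest log2 fold change of the 9 genes at passage 4, -2.87 (SE 0.12, adjusted p = 3.59e-11), and it was also called lower in dKO cells at day 28 (-1.41, SE 0.11, adjusted p = 2.39e-08). At passage 2 the difference was -0.33 (SE 0.12, adjusted p = 0.183). In WT cells SOX4 rose by 1.91 with passage (SE 0.12, adjusted p = 6.99e-09) and by 1.06 with differentiation (SE 0.11, adjusted p = 1.82e-06), the latter falling to 0.99 and under 2-fold without replicate 2 of WT NPCs at passage 2. In dKO cells the corresponding values were -0.64 (SE 0.12, adjusted p = 0.00105) and -0.03 (SE 0.11, adjusted p = 0.927). The genotypes' changes differed by -2.55 for passage (SE 0.16, adjusted p = 6.48e-08) and by -1.09 for differentiation (SE 0.16, adjusted p = 9.9e-05). The difference for differentiation was -0.98 and not called without replicate 2 of dKO-D28 cells.

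SOX11, the other SOXC factor, had 794 and 654 CPM in WT samples and 683 and 677 CPM in dKO NPCs at passage 2, where the groups overlapped. By passage 4 it had 827 and 1040.2 CPM in WT samples and 364 and 410.3 CPM in dKO NPCs. The dKO samples at passage 4 were the lowest of the 12, and SOX11 was called lower there (log2 fold change -1.27, SE 0.14, adjusted p = 1.28e-06). In D28 cells it had 644 and 635 CPM in WT samples and 708 and 559 CPM in dKO cells, which overlapped, with a difference of -0.01 (SE 0.13, adjusted p = 0.94). The genotypes' changes with passage differed by -1.19 (SE 0.19, adjusted p = 0.000372). The call was kept in all 18 alternatives of that contrast, with values between -1.34 and -1.01.

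Per kilobase of exon, SOX4 made up 48.4% and 50.8% of the sum of SOX4 and SOX11 in WT NPCs at passage 2. At passage 4 its share in WT NPCs was 75.0% and 73.2%, and in WT-D28 cells 70.0% and 69.7%. In the 6 dKO samples it lay between 44.8% and 48.9%. The 4 WT samples at passage 4 and day 28 were thus separate from all dKO samples in this ratio, which is taken within a sample and carries no test.

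Markers of neurons and astroglia moved with these groups. The summed level of 12 neuronal genes was 1518 to 1715 CPM in WT NPCs at passage 2, 5149 to 5793 CPM in WT NPCs at passage 4 and 4575 to 4576 CPM in WT-D28 cells, against 843 to 1375 CPM in the 3 dKO groups. Of the 10 neuronal genes tested, 9 were called lower in dKO NPCs at passage 4, where 11.2% of all genes were. At day 28, 9 of 10 were called lower, where 11.7% of all genes were, while TEAD2, a gene better known from progenitors, was called higher. The sum of 10 astroglial genes was 237 to 298 CPM in WT NPCs at passage 2, 2655 to 2974 CPM at passage 4 and 549.7 to 554 CPM at day 28 in WT, and 87.1 to 158 CPM in the dKO groups. All 8 astroglial genes tested were called lower in dKO NPCs at passage 4, and 7 of 8 at day 28, beside the same shares of all genes. Thus the WT samples labelled as passage 4 NPCs had higher neuronal and astroglial sums than those at passage 2, beside PAX6 at 248 and 261 CPM. Between these WT groups 8 of 10 neuronal genes were called higher and 1 lower. Of 8 astroglial genes 7 were called higher and 0 lower, where 10.3% of all genes were called higher. TUBB3 was not higher, with 45.8 and 38.5 CPM at passage 4 and 56.1 and 42.5 CPM at passage 2. Most of the astroglial sum in WT NPCs at passage 4 was SLC1A3, at 1781 and 1946 CPM, while GFAP had 21.7 and 23.6 CPM. The progenitor marker FABP7 was higher as well, at 1884 and 1720 CPM, against 129 and 111 CPM in WT NPCs at passage 2. In bulk samples, fewer cells of a type and less RNA per cell cannot be told apart. The part of these cell types in the SOX4, SOX5, SOX11 and SOX21 values was not tested.

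SOX5, which in the cortex controls the timing of neuron production, had 124 and 93.9 CPM in WT samples and 107 and 99.7 CPM in dKO NPCs at passage 2, where the groups overlapped. At passage 4 it had 258 and 303 CPM in WT samples and 50.1 and 54.9 CPM in dKO NPCs. At day 28 it had 93.5 and 102 CPM in WT samples and 82.4 and 86.1 CPM in dKO cells. The genotype difference in SOX5 was thus called at passage 4 alone, at -2.42 (SE 0.13, adjusted p = 6.48e-10), against -0.05 (SE 0.16, adjusted p = 0.934) at passage 2 and -0.21 (SE 0.12, adjusted p = 0.162) at day 28. With passage SOX5 rose by 1.39 in WT (SE 0.14, adjusted p = 1.6e-06). In dKO NPCs the value was -0.98 (SE 0.15, adjusted p = 0.000234), which was called without replicate 2 of dKO NPCs at passage 2 (-1.03) or at passage 4 (-1.05). The test of the difference gave -2.37 (SE 0.20, adjusted p = 8.24e-07).

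SOX6 (chr11:15966449-16739591, minus strand), the partner of SOX5, had 120.1 and 79.8 CPM in WT samples and 66.1 and 52.3 CPM in dKO NPCs at passage 2, a log2 fold change of -0.72 (SE 0.27, adjusted p = 0.221). The groups did not overlap, and without replicate 2 of WT NPCs the difference was called at -1.02. At passage 4 SOX6 had 86.9 and 105 CPM in WT samples and 71.9 and 68.9 CPM in dKO NPCs (log2 fold change -0.45, SE 0.21, adjusted p = 0.0961). After 28 days it had 166 and 159 CPM in WT samples and 38.1 and 63.3 CPM in dKO cells. The 2 WT samples were then the highest of the 12 and SOX6 had the lowest log2 fold change of the 9 genes, -1.67 (SE 0.21, adjusted p = 2.13e-05). In WT cells the difference between day 28 and passage 2 was 0.74 (SE 0.23, adjusted p = 0.0185), called at 1.03 without replicate 1 of WT NPCs. The genotypes' changes with differentiation differed by -0.95 (SE 0.34, adjusted p = 0.0533), and this was called in 6 of 17 alternatives, between -1.40 and -0.64. SOX5 was thus called between the genotypes at passage 4 and SOX6 at day 28, and the difference from passage 2 was itself called for SOX5 but not for SOX6.

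SOX9 (chr17:72121020-72126416, plus strand), a regulator of the switch to gliogenesis, had 164 and 149 CPM in WT samples and 143 and 127 CPM in dKO NPCs at passage 2. Passage 4 samples had 234 and 298 CPM in WT samples and 139.8 and 147 CPM in dKO NPCs, with a log2 fold change of -0.89 (SE 0.27, adjusted p = 0.0221) that was called only without replicate 1 of WT NPCs at passage 4 (-1.06). The groups did not overlap at either passage. At day 28 SOX9 had 109 and 111 CPM in WT-D28 cells and 113 and 227 CPM in dKO-D28 cells. The dKO-D28 samples differed from each other 2.00-fold, the widest gap of the 9 SOX genes in that group. The log2 fold change at day 28 was 0.64 (SE 0.26, adjusted p = 0.0697), and it lay between 0.05 and 1.04 in the alternatives, being called without replicate 1 of dKO-D28 cells (1.04). Without that sample the genotypes' changes with differentiation also differed by 1.25, against 0.85 (SE 0.41, adjusted p = 0.162) with it.

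The summed level of 12 neural crest markers was higher in the dKO-D28 sample with more SOX9. It was 136 CPM in the sample with 113 CPM of SOX9 and 254 CPM in the sample with 227 CPM, against 12.8 to 14.9 CPM in WT-D28 cells. Of the 8 crest genes tested, 6 were higher in the sample with more SOX9, such as PAX3 with 5.09 and 31.3 CPM, but PAX7, the most abundant, had 70.5 and 62.1 CPM and SNAI2 6.54 and 4.63 CPM, and FOXD3 had no count in either. Against WT-D28 cells, 6 of 8 crest genes were called higher and 0 lower, where 12.4% of all genes were called higher. SOX10, the SOXE gene that defines migrating crest and its glia, had 1 and 2 counts in dKO-D28 cells (0.242 and 0.386 CPM) and 8 and 4 counts in WT-D28 cells, all near the floor. Summed levels of cartilage genes were 862 to 1139.5 CPM in dKO-D28 and 136 to 145 CPM in WT-D28 cells, with 3 of 6 tested called higher. COL2A1 alone had 740 and 591 CPM in dKO-D28 cells. At passage 2 the cartilage sum was already 991 to 1156 CPM in WT and 1402 to 1476 CPM in dKO NPCs. At passage 4 it was 440 to 444 CPM in WT and 1077 to 1078 CPM in dKO NPCs. The low values were thus those of WT samples at passage 4 and day 28, with the lowest at day 28. The dKO-D28 sample with more SOX9 was therefore the one with the larger crest sum, whereas its cartilage sum was smaller, 862 CPM. This sets 1 sample against 1 other, and the order did not hold across groups. WT NPCs at passage 4 had the most SOX9, 234 and 298 CPM, with crest sums of 34.7 and 32.6 CPM. In dKO NPCs at passage 4 the crest sums were 159 and 160 CPM, with 139.8 and 147 CPM of SOX9. The mesenchymal sum was 315 to 451 CPM in dKO-D28 and 228 to 241 CPM in WT-D28 cells, with 3 of 7 tested called higher and 2 lower. Of 5 oligodendrocyte genes tested, 3 were called higher and 0 lower at day 28, where the 10 genes summed to 182 to 189.8 CPM in dKO and 157 to 175 CPM in WT cells, although MOG and NKX2-2 had no count in any sample. The dKO-D28 samples thus exceeded WT-D28 samples in the summed level of each of these lists. Against dKO NPCs at passage 2, only the crest sum was higher in dKO-D28 cells, from 81.3 to 91.6 CPM in those NPCs. The crest genes did not move together there. Of the 8 tested, 4 were called higher and 2 lower, where 7.14% of all genes were called in either direction. SNAI2 had 26.3 and 13.4 CPM in those NPCs, above both dKO-D28 samples. The mesenchymal sum was 947 to 1153 CPM and the oligodendrocyte sum 229 to 234 CPM in those NPCs, and their cartilage sum was also higher. Endothelial genes summed to 27.8 to 42.2 CPM in dKO-D28 and 8.45 to 9.24 CPM in WT-D28 cells, with 1 of 2 tested called higher, and pluripotency genes to 148 to 166 and 17.0 to 19.2 CPM, with 3 of 3 tested called higher (LIN28A, DNMT3B and L1TD1, which progenitors also express). Of 11 progenitor genes tested, 4 were called higher and 1 lower in dKO-D28 cells. The part of these cell types in the SOX9 values was not tested.

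The order of the groups differed from gene to gene. WT NPCs at passage 4 ranked first for SOX2, SOX4, SOX5, SOX9, SOX11 and SOX21, WT NPCs at passage 2 for SOX1 and SOX3, and WT-D28 cells for SOX6. For SOX1, SOX2, SOX3, SOX4, SOX5, SOX11 and SOX21 the lowest group was dKO NPCs at passage 4, and its samples overlapped with no other group. For SOX6 the lowest mean was that of dKO-D28 cells. For SOX9 the lowest group was WT-D28, without overlap. The neighbouring groups that overlapped were dKO NPCs at passage 2 and WT-D28 cells for SOX1 and SOX21, and dKO NPCs at passage 2 and dKO-D28 cells for SOX3, SOX4 and SOX6. WT and dKO NPCs at passage 2 overlapped for SOX5 and SOX11, WT NPCs at both passages for SOX6, WT-D28 and dKO-D28 cells for SOX11, and dKO NPCs at passage 2 and WT-D28 cells for SOX5. For SOX9, dKO-D28 cells overlapped with WT NPCs at passage 2, and dKO NPCs overlapped between the passages.

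Noncoding genes at the SOX loci showed differences of their own. SOX2-OT, in which SOX2 is embedded, had 45.7 and 25.3 CPM in WT samples and 16.5 and 20.5 CPM in dKO NPCs at passage 2, and 27.4 and 26.7 against 7.73 and 10.3 CPM at passage 4. Day 28 samples had 136 and 139 CPM in WT-D28 and 11.6 and 5.79 CPM in dKO-D28 cells. The 2 WT-D28 samples were far above the other 10, and SOX2-OT was called lower in dKO cells at passage 4 (-1.58, adjusted p = 0.000251) and at day 28 (-4.02, SE 0.24, adjusted p = 4.23e-09). In WT cells it rose by 2.04 with differentiation (SE 0.25, adjusted p = 1.28e-05). In dKO cells it was called lower at day 28 (-1.13, SE 0.35, adjusted p = 0.0559), but not without replicate 2 of dKO NPCs (-0.96) or of dKO-D28 cells (-0.67). It was also called lower with passage in dKO NPCs (-1.04, adjusted p = 0.0483), but not without replicate 2 of dKO NPCs at passage 2 (-0.87), without replicate 1 at passage 4 (-0.85) or with offsets for GC content and gene length (-0.87). Counts of SOX2-OT per 100 counts of SOX2 were 33.1 and 34.1 in WT-D28 cells and between 2.00 and 9.83 in the other 10 samples.

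SOX1-OT had 6.53 and 5.22 CPM in WT samples and 7.51 and 5.66 CPM in dKO NPCs at passage 2, where the groups overlapped. By passage 4 it had 16.4 and 13.1 CPM in WT samples and 0.703 and 0.981 CPM in dKO NPCs, which is 3 and 4 counts, so that the size of that difference is imprecise. In D28 cells it had 55.7 and 51.7 CPM in WT samples and 4.85 and 2.70 CPM in dKO cells. It was called lower in dKO cells at passage 4 (-4.07, SE 0.37, adjusted p = 2.16e-07) and at day 28 (-3.86, SE 0.23, adjusted p = 1.64e-09). In WT cells SOX1-OT rose by 3.23 with differentiation (adjusted p = 5.43e-07) and by 1.35 with passage (adjusted p = 0.00922), the second of which was not called without replicate 2 of WT NPCs at passage 2 (1.16). In the same WT cells SOX1 fell with passage and differed by -0.31 (SE 0.11, adjusted p = 0.0308) with differentiation.

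SOX21-AS1, counted over its whole GENCODE gene antisense to SOX21, had 27.4 and 26.8 CPM in WT samples and 19.5 and 17.7 CPM in dKO NPCs at passage 2, and 32.7 and 32.9 against 11.7 and 11.04 CPM at passage 4. It was called lower in dKO NPCs at passage 4 (-1.53, SE 0.20, adjusted p = 1.11e-05), as SOX21 was. At day 28 it had 20.6 and 16.4 CPM in WT samples and 26.2 and 20.1 CPM in dKO cells, which overlapped narrowly. Its counts per 100 counts of SOX21 were lowest in WT NPCs at passage 4, at 38.9 and 35.7, and highest in dKO NPCs at passage 4, at 72.5 and 72.6.

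**Figure D5:**
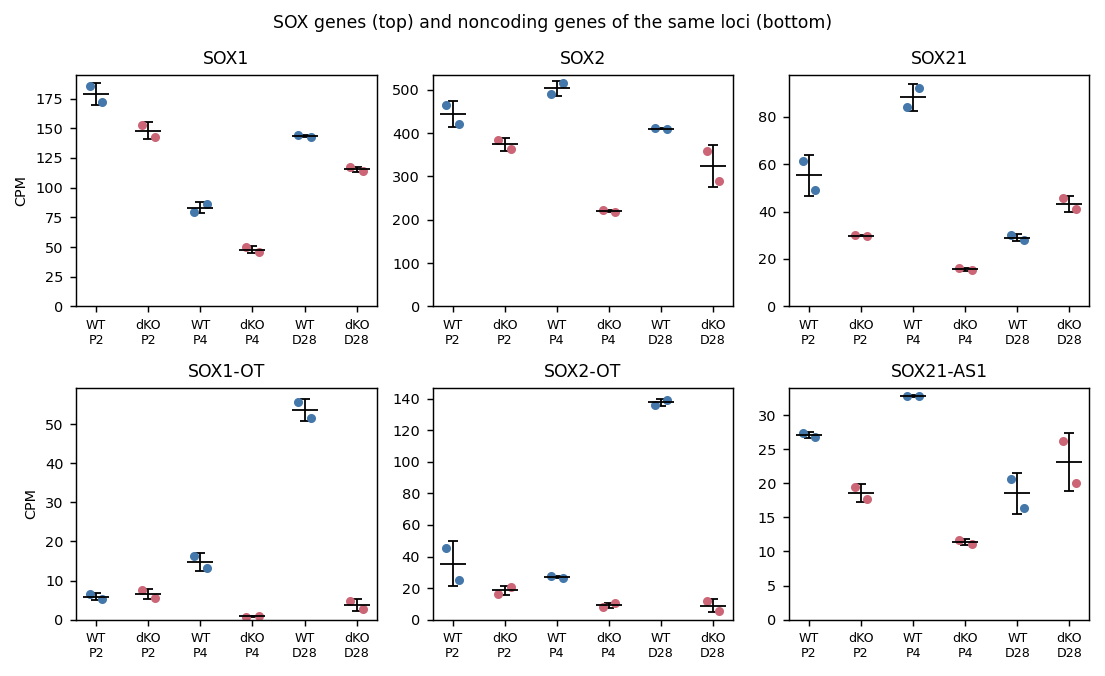
CPM of SOX1, SOX2 and SOX21 (top) and of SOX1-OT, SOX2-OT and SOX21-AS1 (bottom) in each sample (blue WT, red dKO), with the mean and the SD of 2 samples as black bars. SOX2-OT reached 136 and 139 CPM in WT-D28 cells and stayed at 11.6 CPM or less in dKO-D28 cells, while SOX2 had 409 and 290.1 CPM in the lower sample of each of these groups.

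Of 9 further SOX genes, 3 passed the filter. SOX13, the third SOXD gene, had 5.34 and 7.19 CPM in WT samples and 44.7 and 45.4 CPM in dKO NPCs at passage 4, and was called higher there (2.82, SE 0.26, adjusted p = 2.89e-07), in the opposite direction to SOX5. It fell by 1.65 with passage in WT (adjusted p = 0.00202) and rose by 1.78 in dKO NPCs (adjusted p = 0.000401). SOX8 (SOXE) had 28.7 and 30.1 CPM in WT-D28 and 12.6 and 8.68 CPM in dKO-D28 cells and was called lower in the latter (-1.48, SE 0.20, adjusted p = 1.13e-05). SOX8 rose by 1.21 with differentiation in WT cells (adjusted p = 0.00164), but was not called there with offsets for GC content and gene length (0.94). SOX12, the third SOXC gene, had 116 to 226 CPM over the 12 samples and was called in no comparison. SOX7, SOX14, SOX15, SOX17, SOX18 and SOX30 did not pass the filter and had at most 5.40 CPM.

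The genes whose log2 CPM ran most like that of each SOX gene over the 12 samples were picked from 13453 others, so their correlations are descriptions of samples that share groups and depth. SOX4 ran most like SLC1A2 (Pearson's r = 0.989), a glial glutamate transporter, and NCAN (0.988), a proteoglycan of the neural extracellular matrix. SOX2 ran most like JAM2 (0.98) and SNCAIP (0.978), SOX5 like ZBTB18 (0.978), a repressor active in cortical neurogenesis, and CDKN2C (0.967), and SOX1 like EFEMP2 (0.97) and FADS1 (0.946). For SOX21 the closest gene was its neighbour SOX21-AS1 (0.974), followed by PSIP1 (0.969). SOX11 ran most like CDC25B (0.955), a cell cycle phosphatase, and ZNF438 (0.952). For SOX6 the closest were ATXN1 (0.947) and ENSG00000233706 (0.945), for SOX3 THSD4 (0.939) and PAK1 (0.938), and for SOX9 CCDC88C (0.932) and FAM120A (0.92).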

How the data were processed

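The authors prepared TruSeq libraries from TRIzol-extracted RNA and sequenced them on a NextSeq instrument. Per the submitters' processing notes, reads were mapped to hg38 with HISAT2 2.0.4, handled with SAMtools 1.3.1 and counted with HTSeq 0.6.0. The values the authors deposited are unnormalized read counts for each Ensembl gene, and the annotation release is not given in the sources used here. GENCODE v44 gave symbols, coordinates and exon lengths for 57532 of 58302 identifiers (98.7%).

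In R 4.3.3, the 13454 genes averaging 20 counts or more across the 12 samples were fitted with edgeR 4.0.16 (TMM normalization, robust quasi-likelihood test), all 6 groups together. Following the study's methods, a gene was called when its unadjusted p was under 0.05 and its fold change over 2. Adjusted p-values are edgeR's with Benjamini-Hochberg adjustment. The fit was tested on simulated data. Alternatives were DESeq2 1.42.0, other size factors, adjusted calls, other filters, a fit of the compared samples alone, offsets for GC content and gene length (10 bins each), a replicate block and leaving out each sample. Named are the 10 SOX genes, KDM6A and KDM6B, the first 4 tested genes of each marker list as needed, called genes among other SOX genes and SOX-locus noncoding genes, and the 2 genes most like each SOX gene, by log2 CPM with a prior count of 2. TEAD2, PAX7 and the genes without counts were named after their values were seen. The SOX genes and all lists were chosen with earlier results of these data known.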

Additional observations from a re-analysis of the deposited data

Results flagged for a closer look

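The change of 8 genes with passage or with differentiation differed between dKO and WT cells in edgeR's test of the difference itself, and the values are log2 differences of dKO minus WT. For passage, SOX4 differed by -2.55 (adjusted p = 6.48e-08), SOX5 by -2.37 (adjusted p = 8.24e-07), SOX21 by -1.63 (adjusted p = 0.000217) and SOX11 by -1.19 (adjusted p = 0.000372). Among other genes, SOX1-OT differed by -4.27 for passage (standard error 0.64, adjusted p = 0.000164) and SOX13 by 3.43 (standard error 0.47, adjusted p = 6.94e-05). For differentiation, SOX4 differed by -1.09 (adjusted p = 9.9e-05) and SOX21 by 1.44 (adjusted p = 0.000275), and without replicate 2 of dKO-D28 cells SOX4 was at -0.98 and not called. SOX1-OT differed by -4.05 (standard error 0.55, adjusted p = 4.31e-05), SOX2-OT by -3.17 (standard error 0.44, adjusted p = 8.06e-05) and SOX8 by -1.56 (standard error 0.39, adjusted p = 0.00704). With 2 samples a group, no group was large enough to test a single sample as an outlier.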

How the results depend on the processing

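The count of SOX genes called was within 1.5 times its value in most alternatives. For dKO against WT at passage 2 it was 1, and between 1 and 3 when each sample was left out in turn, with 3 without replicate 2 of WT NPCs. For day 28 against passage 2 in WT it was 1, and 2 with offsets for GC content and gene length, alone or with the replicate block. There, leaving out replicate 2 of WT NPCs put SOX4 at 0.99, under 2-fold, and SOX21 at -1.08, over 2-fold and in the opposite direction. Leaving out replicate 1 of WT NPCs put SOX6 at 1.03. For passage 4 against passage 2 in dKO NPCs it was 2, and between 1 and 3 with each sample left out, with 1 without replicate 1 of dKO NPCs at passage 2. The other 6 comparisons stayed within 1.5 times, and the median level of 146 CPM moved between 144 and 148. Over 1179 values of the 9 SOX genes, 1150 kept their side of the threshold, among them 34 uncalled values whose sign differed, 3 lost the call, 26 gained it and 0 called values turned. Without the 2 dKO-D28 samples, an alternative added after seeing the data, the counts were 1 at passage 2 and 5 at passage 4. FABP7, a progenitor marker, turned between passage 2 and day 28 in dKO cells, to -1.03 without replicate 1 of dKO-D28 cells, and the cause was not tested.

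Replicate numbers did not pair the samples: over 15 pairs of groups the deviations of same-numbered samples correlated with a mean of 0.0177 (-0.0555 to 0.182), over 0.1 in 1 pair. With the number as a replicate block the counts stayed at 1, 5 and 3 for dKO against WT at passage 2, passage 4 and day 28, and the block alone changed no count of the other comparisons. Depth limits the passage 2 values most, and SOX10 was too low at these depths to compare.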
